A study of Mus musculus with 12 samples.

Results

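The 10 genes described here encode the molecules that present peptides to T cells and the factors that serve them. They were found in a table of 55414 genes by their mouse GENCODE symbols, and 7 belong to class II of the major histocompatibility complex (MHC; H2-Aa, H2-Ab1, H2-Eb1, H2-DMa, H2-DMb1, Cd74 and Ciita) and 3 to class I (H2-K1, H2-D1 and B2m). All 10 passed the filter on low counts, as did 13057 genes of the table. RNA was sequenced from crypt cells of the small intestine of naive C57BL/6J mice, 8 to 12 weeks old, which were WT (GRWT in the titles) or GRKO. GRKO mice, also labelled GRvillinKO, lack the glucocorticoid receptor gene Nr3c1 where villin is active, which is the intestinal epithelium as a whole and not Paneth cells alone. From both genotypes, Paneth cells (PC, the CD24+ cKIT+ cells of medium to high side scatter that were negative for CD31, CD45 and TER119) and other crypt cells (nonPC) were sorted. This gave 4 groups of 3 libraries, namely WT PC, WT nonPC, GRKO PC and GRKO nonPC, with no treatment in any group. The gate for nonPC, the Cre line and the breeding of the controls are not given in the sources used here. Sorted WT samples are described as mice, but the sources used here do not tie each library to a separate mouse, so p-values may measure only the spread between these libraries. Genotypes were read from the titles, because a separate genotype field of the labels follows the cell fraction and gives WT for every PC library and GRKO for every nonPC library.

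MHC class I molecules are made by nearly all nucleated cells and consist of a heavy chain, such as H2-K1 or H2-D1, and the light chain B2m. They carry peptides cut by the proteasome and pumped into the endoplasmic reticulum by the TAP transporter, and CD8 T cells read them. MHC class II molecules are pairs of an alpha and a beta chain that carry peptides from endosomes to CD4 T cells. They are typical of dendritic cells, macrophages and B cells, but the epithelium of the small intestine makes them too. The invariant chain Cd74 guards the class II groove until H2-DM exchanges its remnant for a peptide, and Ciita is the master regulator that switches class II genes on. The factors RFX, CREB and NF-Y sit on class II promoters and recruit Ciita, and interferon gamma induces Ciita, with Irf1 among the factors that take part. For class I the regulator Nlrc5 plays the part that Ciita plays for class II.

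In the GRCm39 mouse genome, 7 of the 10 genes lie in the MHC on chromosome 17. H2-K1 is found on the minus strand from 34214987 to 34219321, H2-DMa on the plus strand from 34338515 to 34358958 and H2-DMb1 on the plus strand from 34372046 to 34379204. They are followed by H2-Ab1 (plus strand, 34476663 to 34488393), H2-Aa (minus strand, 34493404 to 34506798), H2-Eb1 (plus strand, 34504236 to 34535648) and H2-D1 (plus strand, 35481691 to 35486475). B2m lies on chromosome 2 from 121977957 to 121983594 and Ciita on chromosome 16 from 10297923 to 10347694, and Cd74 also lies outside the MHC. Class I genes resemble each other, and of the exonic windows of 100 bases 95.8% were unique in the genome for H2-K1 and 95.2% for H2-D1. For H2-DMb1, which has the near copy H2-DMb2, the share was 85.5%, and for the other 7 genes it was at least 99.3%. Exons of annotated genes on the other strand overlap 26.8% of the exonic bases of H2-K1, 24.2% of H2-D1 and 16.95% of H2-DMb1, and at most 11.8% of those of the other genes. Library preparation kept the strand, but which strand column of the counter was deposited is not stated.

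Promoters are shown for 3 class II genes and for the 3 class I genes, because the members of each class varied together across the libraries, as described below. Of the letters searched for, TGATTGG and TGACG were found in both classes. Each line gives the 180 bases before the start of transcription, 5′ to 3′ on the strand of the gene, from RefSeq on GRCm38.p6, an older build than that of the counts. Capitals mark the letters searched for, which were TGATTGG (the Y box of class II promoters, which NF-Y reads), a form of the X box region, which RFX reads (the first capitals of H2-Eb1 and H2-DMb1), TGACG (the core of the element read by CREB), an NF-κB element of class I promoters (the first capitals of H2-K1 and H2-D1), and a short and a long form of the element read by interferon regulatory factors, GAANNGAAA and the first capitals of B2m, in which N and the bases between GAAA and GAAA may be any base.
H2-Aa: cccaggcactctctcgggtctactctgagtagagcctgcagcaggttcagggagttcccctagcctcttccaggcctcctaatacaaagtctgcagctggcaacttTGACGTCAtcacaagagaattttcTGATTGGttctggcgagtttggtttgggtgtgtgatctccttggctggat
H2-Eb1: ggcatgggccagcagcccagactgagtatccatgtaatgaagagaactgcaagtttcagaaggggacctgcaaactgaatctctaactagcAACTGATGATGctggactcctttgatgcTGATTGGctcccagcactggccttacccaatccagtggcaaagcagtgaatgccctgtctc
H2-DMb1: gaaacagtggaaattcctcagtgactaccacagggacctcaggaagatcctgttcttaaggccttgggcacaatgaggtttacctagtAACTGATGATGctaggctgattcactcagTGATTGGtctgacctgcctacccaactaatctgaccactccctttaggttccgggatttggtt
H2-K1: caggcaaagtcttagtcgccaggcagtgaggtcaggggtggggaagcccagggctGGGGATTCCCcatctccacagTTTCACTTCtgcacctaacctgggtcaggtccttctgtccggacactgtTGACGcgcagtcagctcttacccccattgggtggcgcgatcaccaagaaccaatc
H2-D1: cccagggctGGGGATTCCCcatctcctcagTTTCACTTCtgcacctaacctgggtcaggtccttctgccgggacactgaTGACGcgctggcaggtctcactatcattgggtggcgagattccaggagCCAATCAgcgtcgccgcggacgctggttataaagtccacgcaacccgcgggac
B2m: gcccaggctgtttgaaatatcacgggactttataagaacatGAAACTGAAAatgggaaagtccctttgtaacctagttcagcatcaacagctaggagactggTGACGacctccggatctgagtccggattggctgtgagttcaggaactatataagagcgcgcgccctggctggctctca

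These sequences are chr17:34287824-34288003 (minus strand) for H2-Aa, chr17:34305687-34305866 (plus) for H2-Eb1, chr17:34153011-34153190 (plus) for H2-DMb1, chr17:34000334-34000513 (minus) for H2-K1, chr17:35262914-35263093 (plus) for H2-D1 and chr2:122147507-122147686 (plus) for B2m. RefSeq gives H2-K1 a pair of starts, and the downstream one was used. Of the 10 genes, 7 had a promoter in the table, and H2-Ab1, Cd74 and Ciita did not. Both strands were searched. In the class II promoters TGATTGG ended 43 bases before the start in H2-Aa, 54 bases in H2-Eb1 and 56 bases in H2-DMb1. The X box form stood 78 bases before the start in H2-Eb1 and 81 bases in H2-DMb1, and H2-Aa held a pair of overlapping TGACG matches on opposite strands at 66 and 69 bases. The class I heavy chain genes H2-K1 and H2-D1 both held the NF-κB element, at 115 and 161 bases, then GAANNGAAA on the other strand and TGACG. B2m held the long interferon element at 129 bases and TGACG at 73 bases. H2-D1 also held TGATTGG on the other strand at 46 bases, and H2-K1 held it across its start. Of 32851 mouse promoters of 300 bases, 7.82% held TGATTGG, 20.8% TGACG, 7.52% GAANNGAAA and 3.44% the long interferon element, whereas the X box form was found in 12 promoters (0.0365%) and the NF-κB element in 35 (0.107%). A match to such letters is a description of the sequence and no evidence of binding.

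The deleted gene was examined first. Nr3c1 had 135, 151 and 160 CPM (a gene's counts scaled to the total of its library) in WT nonPC replicates 1, 2 and 3, and 29.2, 19.6 and 36.2 CPM in GRKO nonPC. In PC it had 33.7, 33.0 and 41.1 CPM in WT and 5.28, 4.73 and 12.1 CPM in GRKO. All GRKO libraries lay below all WT libraries of their fraction, as the titles say, and replicate 3 had the highest value of each GRKO group. The log2 fold change was -2.31 in PC (edgeR adjusted p = 0.0331) and -2.67 in nonPC (edgeR adjusted p = 6.66e-05). Libraries held between 11126297 and 15910292 counts. The 6 Paneth cell markers fixed for this work summed to 345554 to 427473 CPM in PC and 435 to 1674 CPM in nonPC, so that in PC they took a large share of all counts and every other gene got fewer CPM. Fold changes were therefore taken after TMM scaling, with factors of 0.656 to 0.826 in PC, 1.2 to 1.22 in WT nonPC and 1.46 to 1.5 in GRKO nonPC; levels in CPM do not carry this correction. The 6 enterocyte markers summed to 18491 to 22125 CPM in WT nonPC and 4316 to 5694 CPM in GRKO nonPC. In such bulk samples, fewer cells of a type and less RNA per cell cannot be told apart.

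Because class II genes are typical of immune cells, markers of those cells were read in the same libraries. Of 28 markers of leukocytes, B cells, T cells, dendritic cells and macrophages, 18 stayed under 1 CPM in every library and 1 was at 0 throughout. Cd79a of B cells reached 0.310 CPM at most and Cd3e of T cells 0.696 CPM, and Itgax and Csf1r of dendritic cells and macrophages were also under 1 CPM. The highest markers of these lists were Cd79b (3.06 CPM), Gzma (3.89 CPM) and Itgam (5.92 CPM). The 8 dendritic cell and macrophage markers summed to 6.83 to 7.86 CPM in WT nonPC, 5.57 to 7.20 in GRKO nonPC, 1.78 to 5.02 in WT PC and 0.879 to 2.08 in GRKO PC. The 5 B cell markers summed to 2.40 to 4.03, 1.59 to 4.55, 0.549 to 2.03 and 0.223 to 1.44 CPM in the same order. Both sums were thus higher in nonPC than in PC of each genotype, as class II genes were in CPM. The marker with the highest level was Ptprc, which encodes CD45, with 12.5, 23.3 and 1.64 CPM in GRKO PC and 4.83, 9.11 and 0.446 CPM in GRKO nonPC. In WT libraries it did not exceed 4.31 CPM, and no other marker of the 4 lists exceeded 5.92 CPM in any library. In GRKO PC replicate 2 the other 5 markers of the leukocyte list were at 0. The 9 T cell markers went the other way, with sums of 0 to 0.400 CPM in GRKO PC and 0.627 to 8.44 CPM in WT PC. In nonPC they summed to 0.701 to 1.09 CPM in GRKO and 2.15 to 10.3 CPM in WT. Summed over all 28 markers the level lay between 3.94 and 26.7 CPM. The class II gene Cd74 had 135 to 2659 CPM, and the part of immune cells in that level was not tested. Markers of tuft cells, 4 in number, summed to 402, 647 and 239 CPM in GRKO PC and 187, 281 and 69.2 CPM in GRKO nonPC, against 98.8 to 241 CPM in WT PC and 2.56 to 7.998 CPM in WT nonPC. Ptprc and the tuft cell markers were thus lowest in replicate 3 of each GRKO group, as the class II genes were, and their part in the results below was not tested.

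The chains of the class II molecule were present in every library. H2-Aa, the alpha chain of I-A, had 713, 1025 and 1039 CPM in WT nonPC replicates 1, 2 and 3 and 426, 448 and 89.3 CPM in GRKO nonPC. In PC it had 135, 216 and 192 CPM in WT and 91.6, 127 and 17.6 CPM in GRKO. The GRKO libraries lay below all WT libraries of their fraction, and replicate 3 was far below the other GRKO libraries in both fractions. H2-Ab1, the beta chain of I-A, had 1079, 1200 and 1272 CPM in WT nonPC and 591, 599 and 179 CPM in GRKO nonPC. In PC H2-Ab1 had 246, 351 and 303 CPM in WT and 174, 187 and 49.5 CPM in GRKO, with the same separation of the genotypes. H2-Eb1, the beta chain of I-E, had 503, 588 and 590 CPM in WT nonPC and 376, 378 and 82.5 CPM in GRKO nonPC. In PC H2-Eb1 had 156, 207 and 197 CPM in WT and 103, 128 and 27.1 CPM in GRKO, again without overlap. Its partner H2-Ea, which mice of the C57BL/6 haplotype do not express, had 1 read in all 12 libraries together.

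Genes that load class II molecules followed the chains. Cd74, the invariant chain, had 2499, 2659 and 2602 CPM in WT nonPC and 1786, 1698 and 475 CPM in GRKO nonPC. In PC Cd74 had 635, 681 and 649 CPM in WT and 387, 530 and 135 CPM in GRKO, and the genotypes did not overlap in either fraction. H2-DMa, the alpha chain of the peptide exchange factor H2-DM, had 89.2, 107 and 115 CPM in WT nonPC and 88.6, 81.1 and 29.9 CPM in GRKO nonPC, so that the first replicates of the genotypes nearly met. In PC H2-DMa had 29.1, 38.9 and 35.6 CPM in WT and 21.8, 25.7 and 9.74 CPM in GRKO. H2-DMb1, a beta chain of H2-DM, had 93.9, 107 and 114 CPM in WT nonPC and 66.2, 64.4 and 13.2 CPM in GRKO nonPC. In PC H2-DMb1 had 23, 33.2 and 28.5 CPM in WT and 17.1, 22.3 and 4.84 CPM in GRKO, so that the highest GRKO library stood just under the lowest WT library. Its near copy H2-DMb2 had at most 0.348 CPM. Ciita, the regulator, had 63.4, 71.2 and 80.4 CPM in WT nonPC and 61.2, 50.2 and 12 CPM in GRKO nonPC, without overlap. In PC Ciita had 10.3, 19.9 and 17.5 CPM in WT and 12.1, 16.3 and 3.94 CPM in GRKO, and here the genotypes overlapped.

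Class I genes showed another pattern. The heavy chain H2-K1 had 1429, 1786 and 1764 CPM in WT nonPC and 1030, 948 and 790 CPM in GRKO nonPC. In PC it had 442, 480 and 462 CPM in WT and 459, 623 and 372 CPM in GRKO. The genotypes were apart in nonPC and overlapped in PC, where the GRKO libraries spread on both sides of the WT libraries. The heavy chain H2-D1 had 979, 1293 and 1307 CPM in WT nonPC and 802, 764 and 547 CPM in GRKO nonPC. In PC H2-D1 had 245, 365 and 346 CPM in WT and 342, 484 and 236 CPM in GRKO, which overlapped. The light chain B2m had 1311, 1767 and 1836 CPM in WT nonPC and 1011, 1028 and 950 CPM in GRKO nonPC. In PC B2m had 317, 421 and 392 CPM in WT and 314, 426 and 274 CPM in GRKO, which also overlapped. For all 3 class I genes replicate 3 was the lowest GRKO library of both fractions, but by a smaller margin than for class II.

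**Figure D1:**
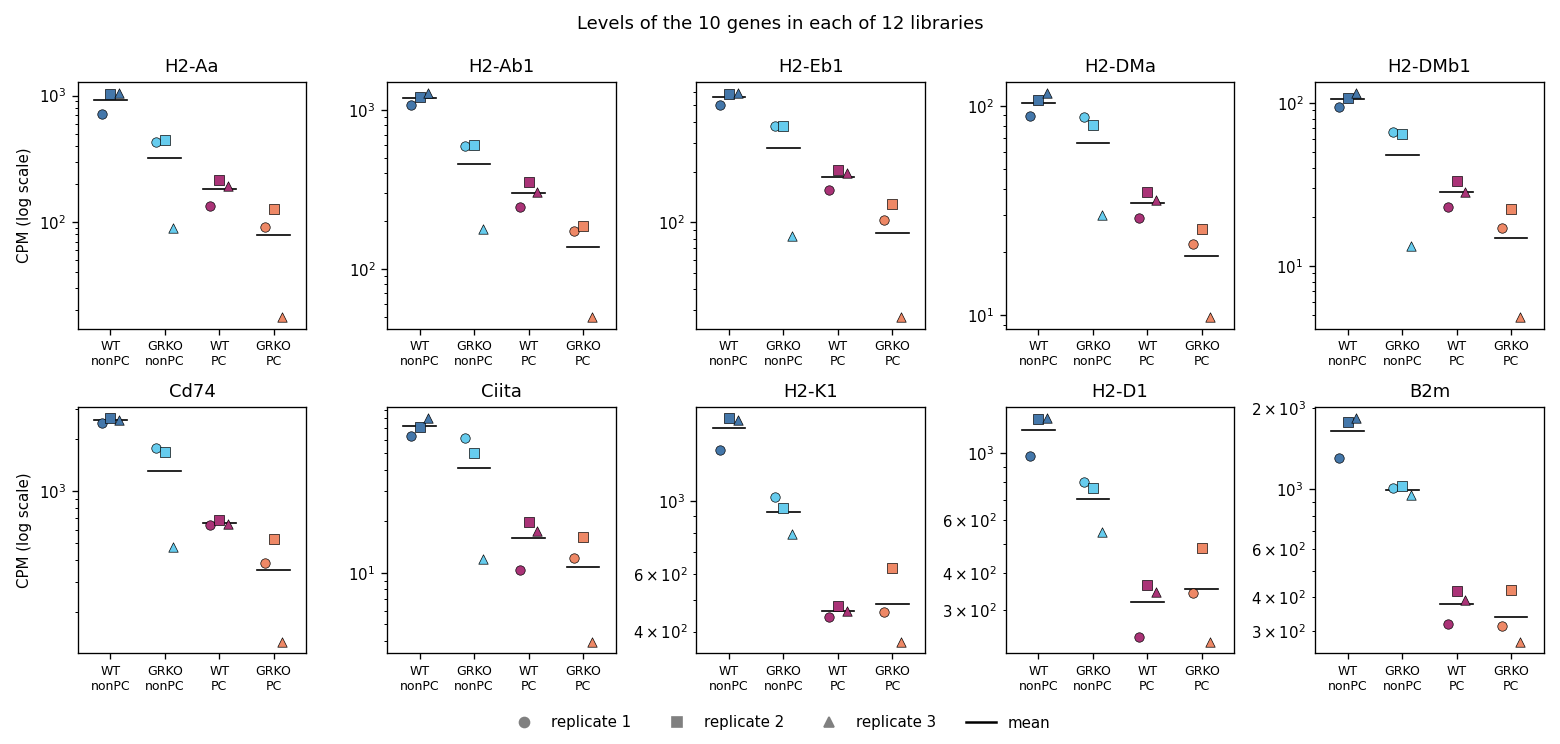
Levels of the 10 genes in each library, in CPM on a log scale, by group; circles, squares and triangles are replicates 1, 2 and 3 and the line is the mean of the 3 libraries. Class II genes in GRKO replicate 3 stand far below the other libraries of their group (H2-Aa at 17.6 CPM in PC and 89.3 CPM in nonPC), whereas the GRKO and WT libraries of H2-K1, H2-D1 and B2m overlap in PC.

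To compare genes with each other, CPM were divided by the exonic length in kilobases. In WT nonPC Cd74 had the highest mean level at 1029 CPM per kb, followed by B2m at 778 CPM per kb, and neither overlapped with its neighbours in this order. H2-K1 (521 CPM per kb), H2-Ab1 (461 CPM per kb) and H2-D1 (399 CPM per kb) came next, and their libraries overlapped from 1 to the next. H2-Eb1 and H2-Aa did not differ, both at 216 CPM per kb. H2-DMb1 (62.4 CPM per kb), H2-DMa (23.9 CPM per kb) and Ciita (6.49 CPM per kb) closed the order, each apart from the gene before it. In WT PC the order was Cd74 (261 CPM per kb), B2m (179), H2-K1 (145), H2-Ab1 (117), H2-D1 (106), H2-Eb1 (71.7), H2-Aa (42.1), H2-DMb1 (16.8), H2-DMa (7.97) and Ciita (1.44), and only H2-Ab1 and H2-D1 overlapped among neighbours. By mean level class I took higher places in GRKO PC. The order began with B2m (160 CPM per kb), H2-K1 (152) and Cd74 (139), which overlapped, then H2-D1 (118), and H2-Ab1 (53.3) no longer overlapped with H2-D1. The top place rested on replicate 3, where Cd74 had 53.7 and B2m 130 CPM per kb. In GRKO PC replicates 1 and 2 Cd74 was still highest, at 154 and 211 CPM per kb against 149 and 202 for B2m. In GRKO nonPC Cd74 (525 CPM per kb) and B2m (473) overlapped and were followed by H2-K1 (290), H2-D1 (235), H2-Ab1 (178), H2-Eb1 (107) and H2-Aa (74.8), whose libraries overlapped from 1 to the next.

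The balance between the classes was read within libraries as the ratio of H2-Ab1 to H2-K1, both per kb. This ratio was 0.936, 0.833 and 0.895 in WT nonPC replicates 1, 2 and 3 and 0.690, 0.907 and 0.812 in WT PC. It was 0.712, 0.784 and 0.281 in GRKO nonPC and 0.470, 0.372 and 0.165 in GRKO PC. For this pair all 3 GRKO PC libraries lay below all WT PC libraries, and all GRKO nonPC libraries below all WT nonPC libraries, by a small margin for replicates 1 and 2. With H2-Eb1 or Cd74 in place of H2-Ab1 the genotypes overlapped in nonPC. H2-Eb1 and H2-K1, for example, had 145 and 323 CPM per kb in GRKO nonPC replicate 1 and 194 and 449 CPM per kb in WT nonPC replicate 1. The share of all gene pairs without overlap was not computed. Within class I, H2-K1 over H2-D1 lay between 1.17 and 1.69 in the 12 libraries and B2m over H2-K1 between 1.03 and 1.82. Within class II, Cd74 over H2-Ab1 lay between 1.98 and 3.09, H2-Ab1 over H2-Aa between 1.96 and 4.70, H2-DMa over H2-DMb1 between 0.369 and 0.881 and H2-Ab1 over Ciita between 41.6 and 102.

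The GRKO libraries numbered 3 stood apart for class II, in PC and in nonPC alike. The mean of replicates 1 and 2 exceeded replicate 3 by 6.21-fold for H2-Aa in PC and 4.89-fold in nonPC, and over the 7 class II genes by 2.44-fold to 6.21-fold in PC and 2.83-fold to 4.95-fold in nonPC. For the 3 class I genes the excess was 1.35-fold to 1.75-fold in PC and 1.07-fold to 1.43-fold in nonPC. All 10 genes were lowest in replicate 3 of both GRKO groups, as were 21 of the 56 other tested genes of the antigen presentation pathway, whose median excess was 1.12-fold in each fraction. Among these, the immunoproteasome subunits Psmb8 (2.30-fold in PC and 1.98-fold in nonPC) and Psmb9 (2.03-fold and 1.55-fold), Nlrc5 (1.87-fold and 1.96-fold) and the transporter Tap1 (2.004-fold and 1.47-fold) were also lower in replicate 3, whereas the factors Rfx5 (0.860-fold and 1.19-fold), Rfxank (0.991-fold and 1.05-fold) and Rfxap (0.830-fold and 0.976-fold) and the protease Ctss (1.19-fold and 0.997-fold) were close to the other libraries. Replicate 3 also had the highest Nr3c1 of each GRKO group and the lowest Ptprc and tuft cell marker levels, and the part of these in the class II levels was not tested. Results are given below for all 12 libraries and, as an alternative added after the data were seen, without the GRKO libraries numbered 3. These libraries were left out because of their class II values, so the smaller SE of the class II genes and the calls gained follow from that choice and are a description, with no independent support.

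The first comparison, WT PC against WT nonPC, asks how Paneth cells differ from their crypt neighbours. In CPM, nonPC exceeded PC of the same number by 4.74-fold to 5.42-fold for H2-Aa, 3.90-fold to 4.01-fold for Cd74, 3.58-fold to 6.13-fold for Ciita and 4.13-fold to 4.69-fold for B2m. After TMM scaling the differences were smaller but kept their direction. All 3 class I genes were lower in PC, by a log2 fold change of -1.13 ± 0.19 (SE) for H2-K1 (edgeR adjusted p = 0.000114), -1.18 ± 0.27 for H2-D1 (edgeR adjusted p = 0.00300) and -1.40 ± 0.20 for B2m (edgeR adjusted p = 2.81e-05). The 7 class II genes had log2 fold changes from -1.62 ± 0.76 (H2-Aa) to -0.86 ± 0.45 (H2-DMa), and none passed the threshold in edgeR (adjusted p between 0.0854 and 0.302) or in DESeq2, with 1 class II gene, Cd74, at an unadjusted p under 0.05 in edgeR and with 7 of all 10 genes at such a p in DESeq2. Thus 3 of 10 genes were called, all lower, where 50.7% of all genes tested were called in either direction and 26.7% lower. All 3 PC libraries lay below all nonPC libraries for each of the 10 genes on the TMM scale, which held for 57.5% of all genes tested in either direction. With the replicate number of each genotype as a block, all 10 genes were lower in PC, beside 53.2% of all genes. The class II genes then had edgeR adjusted p between 2.07e-08 and 1.84e-05. This block paired the fractions in WT and also in GRKO. It thus took the low level shared by the GRKO libraries numbered 3 out of the estimate of the spread, and its calls are not independent of those libraries. The GRKO libraries numbered 3 enter this comparison only through the filter, the scaling and the shared estimate of the spread. When they were left out, all 10 genes were also lower in PC, beside 50.8% of all genes. Class II log2 fold changes then lay between -1.54 ± 0.22 (H2-Aa) and -0.78 ± 0.16 (H2-DMa), with adjusted p of at most 0.00115 in edgeR.

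The next comparison, GRKO PC against WT PC, asks what loss of the glucocorticoid receptor changes in Paneth cells. It shares the WT PC libraries with the comparison before. Class II genes had negative log2 fold changes in PC, from -1.23 ± 0.76 for H2-Aa and -1.15 ± 0.58 for H2-Ab1 to -0.60 ± 0.68 for Ciita, and class I genes had smaller values, with 0.04 ± 0.18 for H2-K1, 0.11 ± 0.27 for H2-D1 and -0.20 ± 0.19 for B2m. None of the 10 genes was called in edgeR (adjusted p between 0.239 and 0.903) or DESeq2, and none had an unadjusted p under 0.05 in edgeR, beside 3.22% of all genes called. On the TMM scale 6 of the 10 genes, all class II genes but Ciita, had no overlap between the genotypes, against 24.4% of all genes tested. Stem cell markers also lay apart between these groups, with sums of 3057 to 4359 CPM in GRKO PC and 5012 to 6502 CPM in WT PC, and their part in these values was not tested. Leaving out the GRKO libraries numbered 3 moved the class II values towards 0, to -0.79 ± 0.24 for H2-Aa, -0.77 ± 0.20 for H2-Ab1, -0.74 ± 0.18 for H2-Eb1 and -0.56 ± 0.16 for Cd74. Their spread shrank too, but again none was called (edgeR adjusted p between 0.0679 and 0.670 over the class II genes), with 6 class II genes at an unadjusted p under 0.05, beside 0.845% of all genes called. Of the alternatives run, the fit without a filter on low counts was the one that called class II genes here, all 7 of them lower, with adjusted p between 5.83e-10 and 0.0145 in edgeR, beside 7.39% of all genes, or 1780 calls against 420 with the filter.

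In nonPC the 3 class I genes were called between the genotypes. Against WT nonPC, GRKO nonPC had less H2-K1 (log2 fold change of -1.14 ± 0.19, edgeR adjusted p = 0.000317), less H2-D1 (-1.05 ± 0.27, edgeR adjusted p = 0.00957) and less B2m (-1.01 ± 0.20, edgeR adjusted p = 0.00112). Class II genes had values from -1.82 ± 0.77 for H2-Aa and -1.66 ± 0.58 for H2-Ab1 to -0.93 ± 0.44 for H2-DMa, with Cd74 at -1.26 ± 0.55. None of them was called in edgeR (adjusted p between 0.0515 for H2-Ab1 and 0.204 for Ciita), 3 had an unadjusted p under 0.05, and DESeq2 called H2-Aa (adjusted p = 0.0375) and H2-Ab1 (adjusted p = 0.0121), beside 32.1% of all genes. So 3 of 10 genes were called, all lower, beside 37.3% of all genes in either direction and 19.8% lower, and all 10 genes had no overlap between the genotypes, as had 55.3% of all genes. Without the GRKO libraries numbered 3, 9 of 10 genes were called lower in GRKO nonPC, beside 30.4% of all genes in either direction. Among them were H2-Ab1 at -1.33 ± 0.20 (edgeR adjusted p = 0.000426), H2-Aa at -1.42 ± 0.25 (edgeR adjusted p = 0.00120), Cd74 at -0.91 ± 0.16 (edgeR adjusted p = 0.00114) and H2-DMa at -0.62 ± 0.18 (edgeR adjusted p = 0.0175). The exception was Ciita at -0.70 ± 0.25 (edgeR adjusted p = 0.0520). Enterocyte marker sums, given above, also lay apart between these groups. So did the sums of 4 proliferation markers (1436 to 1520 CPM in GRKO nonPC and 685 to 782 CPM in WT nonPC) and of 4 stem cell markers (6294 to 8340 CPM and 3990 to 5546 CPM). The part of these in the class I and class II values was not tested.

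**Figure D2:**
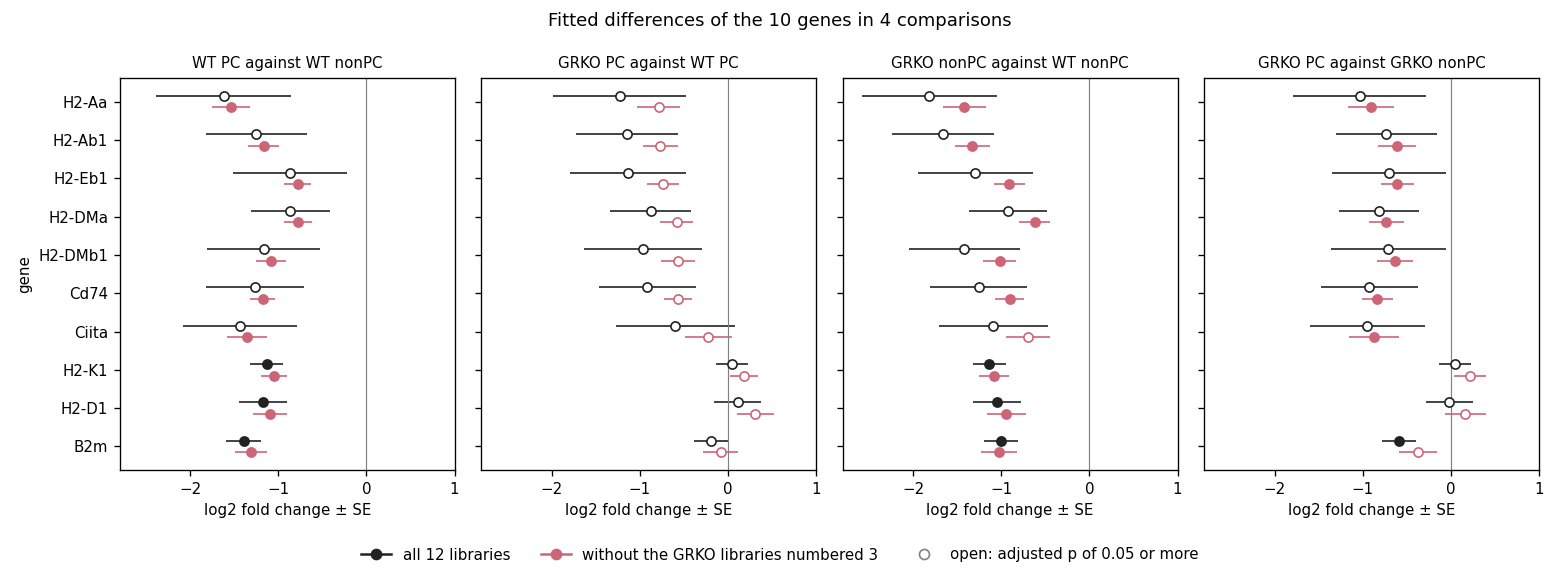
Log2 fold changes of the 10 genes with their SE in the 4 comparisons between groups, from edgeR on all 12 libraries (black) and without the GRKO libraries numbered 3 (red); filled points passed an adjusted p of 0.05. The class I genes H2-K1, H2-D1 and B2m lie near 0 between the genotypes in PC and near -1 in nonPC, and the bars of the class II genes shrink when the libraries numbered 3 are left out.

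Whether the effect of the genotype differs between the fractions was tested as an interaction. H2-K1 had an interaction of 1.18 ± 0.26 on the log2 scale (edgeR adjusted p = 0.00680), which is the difference between 0.04 in PC and -1.14 in nonPC. H2-D1 (1.16 ± 0.38, edgeR adjusted p = 0.0526) and B2m (0.81 ± 0.27, edgeR adjusted p = 0.0517) missed the threshold closely, and DESeq2 called all 3 class I genes, beside 24.6% of all genes. For class II the interaction lay between 0.05 (H2-DMa) and 0.59 (H2-Aa), with H2-DMa at -0.22 and H2-Eb1 at -0.11 when scaled by library totals only, and none was called in edgeR (adjusted p between 0.705 and 0.971) or DESeq2, with none at an unadjusted p under 0.05. Hence 1 of 10 genes was called, beside 18.7% of all genes. Without the GRKO libraries numbered 3, H2-K1 (1.27 ± 0.23), H2-D1 (1.26 ± 0.30) and B2m (0.94 ± 0.28) were all called (edgeR adjusted p between 0.00497 and 0.0477) and the class II genes were not (edgeR adjusted p between 0.207 and 0.937), beside 10.8% of all genes.

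The same contrast can be read from the fractions within GRKO. GRKO nonPC exceeded GRKO PC of the same number by 1.52-fold to 2.25-fold in CPM for H2-K1, against 3.24-fold to 3.82-fold in WT. The corresponding ratios were 1.58-fold to 2.35-fold against 3.54-fold to 3.99-fold for H2-D1 and 2.41-fold to 3.47-fold against 4.13-fold to 4.69-fold for B2m, with no overlap between the genotypes in any of the 3. In CPM the ratios of the genotypes overlapped for the class II genes, for example 3.20-fold to 4.61-fold in GRKO and 3.90-fold to 4.01-fold in WT for Cd74. For H2-Aa they were 3.52-fold to 5.07-fold and 4.74-fold to 5.42-fold. Ratios in CPM do not carry the TMM correction, which differed between GRKO nonPC and WT nonPC. On the TMM scale the ratios no longer overlapped for Cd74 and, narrowly, H2-DMb1, and still overlapped for the other class II genes. Cd74 in nonPC and PC then had 1225 and 586, 1133 and 653, and 321 and 172 CPM in GRKO replicates 1, 2 and 3. In WT it had 2051 and 770, 2224 and 1040, and 2138 and 855 CPM. After TMM scaling, GRKO PC against GRKO nonPC gave log2 fold changes of 0.05 ± 0.18 for H2-K1 and -0.02 ± 0.27 for H2-D1, which became -0.93 and -0.99 and were both called when scaled by library totals only, and of -0.59 ± 0.19 for B2m, the only gene called (edgeR adjusted p = 0.0259, beside 39.2% of all genes). B2m was also the only gene without overlap between these groups on the TMM scale, against 52.6% of all genes. Class II genes had values from -1.04 ± 0.76 (H2-Aa) to -0.70 ± 0.65 (H2-Eb1), and none was called in edgeR or DESeq2 or had an unadjusted p under 0.05 in edgeR. Without the GRKO libraries numbered 3 all 7 class II genes were lower in GRKO PC, from -0.91 ± 0.26 (H2-Aa) to -0.61 ± 0.19 (H2-Eb1) with edgeR adjusted p between 0.00265 and 0.0482, and B2m was no longer called (-0.37 ± 0.22, edgeR adjusted p = 0.239), beside 26.5% of all genes.

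**Figure D3:**
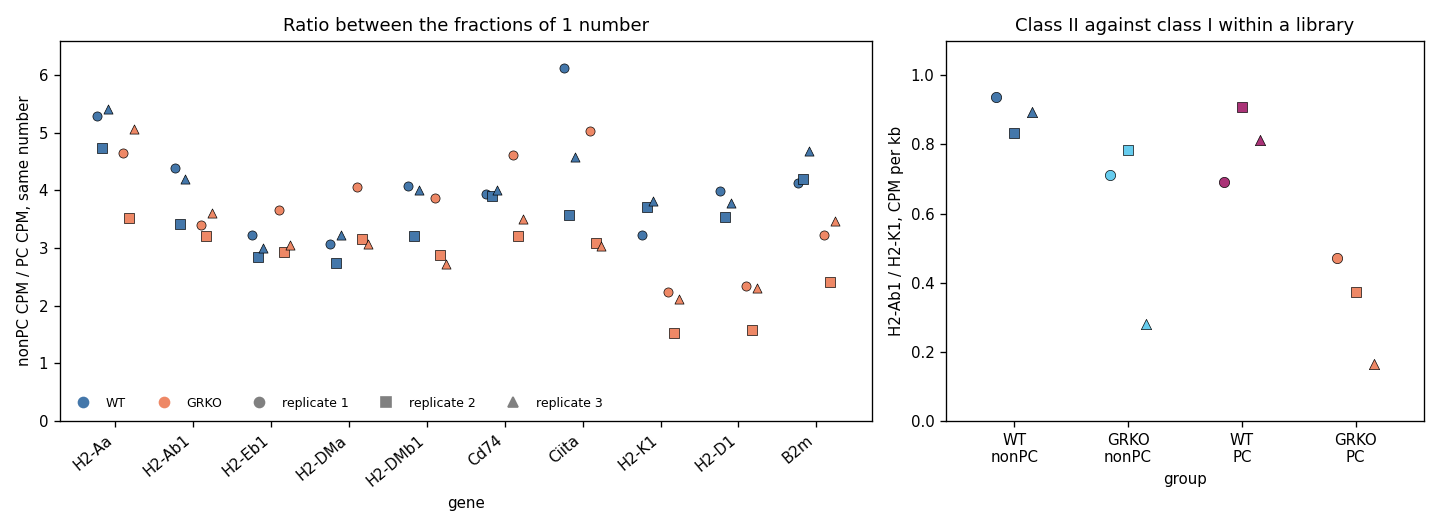
Left, the ratio of nonPC to PC in CPM for libraries of the same genotype and number, for each of the 10 genes; right, the ratio of H2-Ab1 to H2-K1, both in CPM per kb, in each library by group, with circles, squares and triangles for replicates 1, 2 and 3. The GRKO ratios of H2-K1, H2-D1 and B2m lie below the WT ratios without overlap, and the share of all genes that do so was not computed. The ratios of H2-Ab1 to H2-K1 in GRKO PC, between 0.165 and 0.470, lie below those of WT PC.

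With the means of the 4 groups removed, the 7 class II genes deviated together over the 12 libraries, with Pearson's r between 0.965 and 0.998 for their 21 pairs (log2 CPM after TMM scaling), and the 3 class I genes had r between 0.903 and 0.970. Between the classes r lay between 0.561 (Cd74 and B2m) and 0.900. In the libraries other than the GRKO libraries numbered 3 the ranges were 0.807 to 0.982 within class II, 0.936 to 0.980 within class I and 0.785 to 0.994 between the classes over 10 libraries and the ranges overlapped. These values are a description over libraries that share group, depth and scaling.

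The pathway around the 10 genes was described with a list of 78 genes, of which 66 were tested, the 10 genes included. In WT PC against WT nonPC 6 of the 66 were higher and 33 lower (median log2 fold change of -0.75, against 0.01 over all genes tested), where 50.7% of all genes were called and 26.7% were lower. In GRKO PC against WT PC 3 were lower and none higher (median of -0.22, against 0.03), where 3.22% of all genes were called. In GRKO nonPC against WT nonPC 1 was higher and 25 lower (median of -0.62, against 0.02), where 37.3% of all genes were called and 19.8% were lower. The interaction called 10 of the 66 genes, all higher (median of 0.34, against -0.01). Of all genes 18.7% were called in either direction, with 1496 genes higher and 949 lower. Without the GRKO libraries numbered 3 the counts were 7 higher and 41 lower, none in either direction, 1 higher and 32 lower, and 9 higher, in the same order. Of all genes 50.8%, 0.845%, 30.4% and 10.8% were then called in either direction. The list was gathered with results of these data known and is no independent evidence of a direction.

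Other class II genes were nearly silent, as H2-Ea, H2-Eb2, H2-Oa, H2-Ob and H2-DMb2 stayed under 1 CPM in every library and were not tested. Of the 8 class II regulators, Ciita included, 1 was higher and 2 were lower in WT PC than in WT nonPC, and 1 was higher and 1 lower in GRKO nonPC than in WT nonPC, a smaller share in both comparisons than the 50.7% and 37.3% of all genes called. Rfx5 and Rfxap passed no test between WT PC and WT nonPC (log2 fold changes of -0.20 and 0.26), GRKO and WT PC (0.09 and 0.12) or GRKO and WT nonPC (-0.01 and 0.30). Rfxank, the ankyrin subunit of RFX, had 43.8, 41.0 and 40.1 CPM in WT nonPC and 28.1, 25.0 and 25.2 CPM in GRKO nonPC, without overlap, a log2 fold change of -0.96 (edgeR adjusted p = 0.000349). It was also lower in WT PC than in WT nonPC (-1.24, edgeR adjusted p = 1.64e-05), was not called between the genotypes in PC (-0.17, edgeR adjusted p = 0.559), and had an interaction of 0.79 (edgeR adjusted p = 0.0293). Nfya, a subunit of NF-Y, was the gene of the whole list that edgeR called higher in GRKO nonPC, by 0.44 (adjusted p = 0.0285), whereas DESeq2 called 0 genes of the list higher and the replicate block 2. It went from 32.3, 38.3 and 46.3 CPM in WT to 68.8, 66.2 and 58.7 CPM in GRKO.

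Among proteases and other endosomal genes, 3 of 7 were higher and 3 lower in WT PC than in WT nonPC, beside 50.7% of all genes called. Lgmn, the endosomal protease legumain, had the largest positive value of the list there (log2 fold change of 2.98, edgeR adjusted p = 0.000199), with 43.3, 137 and 106 CPM in WT PC and 19.2, 25.2 and 16.7 CPM in WT nonPC, and again in GRKO PC against GRKO nonPC (3.91, edgeR adjusted p = 6.70e-05). Ctss, the protease that trims the invariant chain, had 25.6, 25.6 and 23.6 CPM in WT PC and 14.3, 17.8 and 13.5 CPM in GRKO PC. Its fall of -0.74 on the log2 scale (edgeR adjusted p = 0.0430) was the largest of the 3 calls of the list between the genotypes in PC, and its 3 GRKO libraries were close to each other. Ctss was also lower in GRKO nonPC than in WT nonPC (-0.98, edgeR adjusted p = 0.000136). The value in PC without the GRKO libraries numbered 3 was -0.67 and no longer called (edgeR adjusted p = 0.0753).

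The other calls in GRKO PC were both subunits of the proteasome activator PA28. Psme1 had 164, 151 and 152 CPM in WT PC and 114, 111 and 100 CPM in GRKO PC (-0.53, edgeR adjusted p = 0.0448), and Psme2 had 174, 166 and 155 CPM in WT PC and 121, 106 and 94.9 CPM in GRKO PC (-0.62, edgeR adjusted p = 0.0448). Neither was called without the GRKO libraries numbered 3 (edgeR adjusted p of 0.0983 and 0.105). Of the immunoproteasome subunits, which replace standard subunits under interferon, Psmb10 was lower in GRKO nonPC than in WT nonPC (-0.50, edgeR adjusted p = 0.0283) and in WT PC than in WT nonPC (-0.87, edgeR adjusted p = 0.000503). Psmb8 had -0.88 between the genotypes in PC and -0.94 in nonPC, and Psmb9 -0.82 and -0.68, and neither gene was called in either fraction. Over the 5 genes of this list the interaction called none, with a median of -0.01.

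For the peptide loading complex, 6 of 8 genes were lower in WT PC than in WT nonPC and 2 were lower in GRKO nonPC than in WT nonPC, beside 26.7% and 19.8% of all genes lower. Tap2, a subunit of the TAP transporter, had 81.0, 98.4 and 105 CPM in WT nonPC and 60.7, 44.3 and 31.3 CPM in GRKO nonPC (-1.35, edgeR adjusted p = 0.000793). Tapbp, the tapasin that tethers class I to TAP, had 266, 348 and 331 CPM in WT nonPC and 265, 230 and 214 CPM in GRKO nonPC (-0.70, edgeR adjusted p = 0.00203). In PC the genotypes gave -0.26 for Tap2 and 0.03 for Tapbp, neither called, and the interaction was called for both (1.09 and 0.73, edgeR adjusted p of 0.0427 and 0.0272). Tap1, the other TAP subunit, was lower in WT PC than in WT nonPC (-1.62, edgeR adjusted p = 0.00340), and between the genotypes it had -0.40 in PC and -0.94 in nonPC (edgeR adjusted p = 0.0562).

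Among interferon gamma signalling genes and the class I regulator, 8 of 10 were lower in WT PC than in WT nonPC, 6 were lower in GRKO nonPC than in WT nonPC and none was called between the genotypes in PC, beside 26.7% and 19.8% of all genes lower in the first pair of comparisons. Nlrc5 had 8.22, 22.3 and 23.9 CPM in WT nonPC and 11.5, 7.48 and 4.84 CPM in GRKO nonPC, where replicate 1 of GRKO exceeded replicate 1 of WT (-1.49, edgeR adjusted p = 0.0272). Irf1, a transcription factor that interferon gamma induces, was called lower in the same comparison (-0.75, edgeR adjusted p = 0.00340). Between the genotypes in PC the values were -0.37 for Irf1 and -1.09 for Nlrc5. The kinase Jak2 had an interaction of 1.13 (edgeR adjusted p = 0.00338), from -0.91 in nonPC and 0.23 in PC.

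Non-classical class I genes lie in the same region and often serve other receptors. Of 17 tested, 6 were lower and 2 higher in WT PC than in WT nonPC, beside 26.7% of all genes lower and 50.7% called. In GRKO nonPC against WT nonPC 7 were lower and none higher, beside 19.8% of all genes lower and 37.3% called in either direction. H2-Q1 had 106, 110 and 126 CPM in WT nonPC, 30.4, 23.9 and 30.9 CPM in GRKO nonPC and at most 2.43 CPM in the 6 PC libraries. Its log2 fold change was -5.90 in WT PC against WT nonPC (edgeR adjusted p = 2.75e-07), -4.12 in GRKO PC against GRKO nonPC (edgeR adjusted p = 1.67e-05) and -2.29 in GRKO nonPC against WT nonPC (edgeR adjusted p = 0.000180). H2-Q2 had 484, 553 and 565 CPM in WT nonPC and 209, 148 and 176 CPM in GRKO nonPC (-1.87, edgeR adjusted p = 0.000342), and its interaction of 1.63 was called (edgeR adjusted p = 0.0139). H2-T23, which encodes the ligand Qa-1, had 231, 424 and 399 CPM in WT nonPC and 86.6, 77.3 and 121 CPM in GRKO nonPC (-2.18, edgeR adjusted p = 0.00597). H2-T3, the thymus leukaemia antigen of the gut epithelium, had 373, 258 and 241 CPM in WT nonPC and 164, 138 and 126 CPM in GRKO nonPC (-1.31, edgeR adjusted p = 0.000653), and was lower in GRKO PC than in GRKO nonPC (-1.64, edgeR adjusted p = 9.91e-05). In GRKO replicate 3 H2-Q1 and H2-T23 were not the lowest of their groups, unlike the 10 genes. Unique windows made up 90.3% of H2-Q1, 94.8% of H2-Q2, 92.9% of H2-T23 and all of H2-T3, so that counts of the first 3 may be split with near copies.

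Further extremes of the list were Fcgrt, the neonatal Fc receptor, which was lower in PC than in nonPC (-2.76 in WT and -1.90 in GRKO, edgeR adjusted p of 2.95e-08 and 2.39e-06), and the lipid-presenting Cd1d1 (1.65, edgeR adjusted p = 0.00756) and Cd1d2 (2.06, edgeR adjusted p = 0.00981), which were higher in WT PC than in WT nonPC at levels in WT PC of at most 3.76 and 1.17 CPM. In GRKO, Cd1d2 (2.54, edgeR adjusted p = 0.00468) and H2-T24 (2.47, edgeR adjusted p = 0.000431) were also higher in PC, with H2-T24 under 3 CPM in every library. Of the costimulation and checkpoint ligands, 2 of 6 were tested. Cd274, the ligand PD-L1, had 1.55, 5.22 and 3.97 CPM in WT nonPC and 1.09, 0.754 and 0.955 CPM in GRKO nonPC (-2.22, edgeR adjusted p = 0.00250), with an interaction of 2.56 (edgeR adjusted p = 0.0289), the largest of the list.

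**Figure D4:**
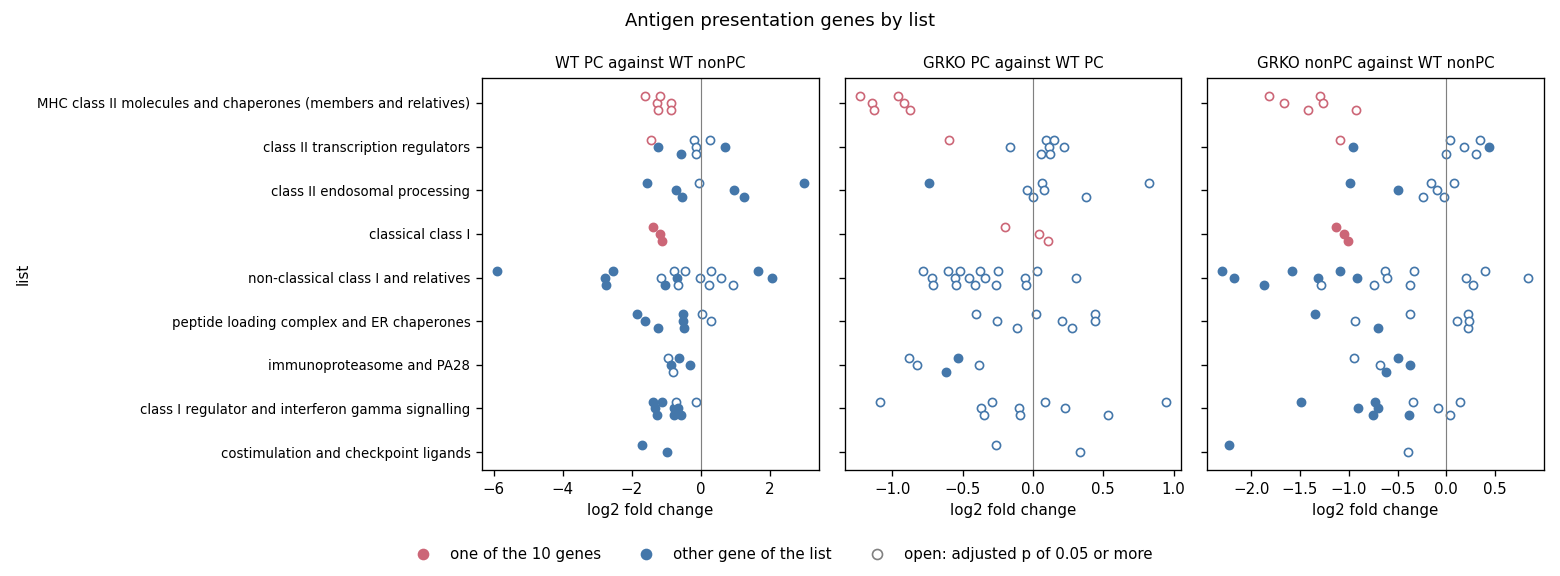
Log2 fold changes of the tested antigen presentation genes by list in 3 comparisons, with the 10 genes in red and other genes in blue; filled points passed an adjusted p of 0.05. Between the genotypes, filled points are few in PC (Ctss, Psme1 and Psme2) and lie below 0 in nonPC for most lists, with Nfya the exception at 0.44.

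The genes outside these lists whose levels were most like the class II genes over the 12 libraries, by Pearson's r with the mean of the standardised H2-Aa, H2-Ab1, H2-Eb1 and Cd74 values (log2 CPM, prior count of 2), were Parp3 (r = 0.947), Lypd8l (0.916), Prss32 (0.912), AW112010 (0.899) and H2-Q5 (0.898). Ciita had r = 0.968 on the same scale and the class I genes 0.795 to 0.832. Parp3 had 14.0, 17.1 and 19.6 CPM in WT nonPC, 11.01, 9.99 and 5.09 CPM in GRKO nonPC, 3.84, 3.97 and 3.86 CPM in WT PC and 2.88, 2.22 and 1.04 CPM in GRKO PC, with replicate 3 lowest in both GRKO groups. Most like H2-K1, H2-D1 and B2m were Tmem45b (r = 0.983), Panx1 (0.972), F11r (0.972), Rnf19b (0.964) and Sp100 (0.961). Tmem45b had 287, 300 and 330 CPM in WT nonPC, 233, 228 and 217 CPM in GRKO nonPC, 94.1, 98.2 and 96.9 CPM in WT PC and 96.2, 133 and 79.2 CPM in GRKO PC, so that its genotypes were apart in nonPC and overlapped in PC. These likenesses are descriptions over libraries that share group, depth and scaling.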

How the data were processed

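Libraries of RNA from sorted Paneth cells (PC) and other crypt cells (nonPC) of WT and GRKO mice were deposited as 1 table of counts. Per the methods, the authors made these raw counts with STAR (2.7.10a) during alignment to mm39, after Trimmomatic (0.39) and FastQC, from stranded single-end TruSeq libraries, and the submitters' processing notes also name DESeq2. The strand column used is not stated, and the labels and the methods name different RNA kits. Of 55414 identifiers, 54749 were named through the GENCODE annotation of GRCm39 and 665 were not. Groups were read from the titles, and the 10 genes and all lists were chosen with earlier results of these data known.

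Counts were tested in R 4.3.3 with the robust quasi-likelihood test of edgeR 4.0.16 on all 12 libraries, with TMM scaling, filterByExpr, a mean for each group and Benjamini-Hochberg adjustment over 13057 genes, and a gene was called at an adjusted p under 0.05. The SE is the log2 fold change divided by the square root of F. Alternatives were DESeq2 1.42.0, RLE factors, library totals only, scaling without Lyz1 and the Defa genes, no filter, at least 10 counts in every library of 1 group compared, a fit to only the groups compared, the replicate number as a block, calls at an adjusted p under 0.01, and fits without each library in turn. Leaving out GRKO replicate 3, or WT replicate 2, in both fractions was added after the data were seen. The female marker Xist had 127 CPM in WT PC replicate 2 and 257 CPM in WT nonPC replicate 2. Every other library, all GRKO libraries included, had at most 0.520 CPM of Xist. The part of sex in the results was not tested. The scripts were tested on simulated data.

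Totals of 11126297 to 15910292 counts set the precision, and replicates differed by more than counting noise (chi-square per degree of freedom of 12.31 to 47.06). Same-numbered WT libraries of the fractions deviated together (r of 0.349, 0.229 and 0.238 over genes). Numbers were taken as pairs of fractions, in WT and in GRKO, only in the alternative with the replicate block, and the main fit held no pairing. Genes named were the 10 genes, Nr3c1, fixed regulators and pathway genes, and per comparison the 3 called pathway genes with the largest log2 fold change in each direction. Any other gene with a value was chosen after its values were seen. A result for an item withheld from this text is not reported here.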

Additional observations from a re-analysis of the deposited data

Results flagged for a closer look

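H2-K1 stood out because the effect of the genotype differed between the cell fractions by an interaction test. The difference was 1.18 ± 0.26 on the log2 scale (edgeR adjusted p = 0.00680), from 0.04 in PC and -1.14 in nonPC. In nonPC all 3 GRKO libraries lay below all 3 WT libraries, and in PC the genotypes overlapped. Of all genes tested 18.7% were called in this interaction. The call for H2-K1 was also made by DESeq2 and without the GRKO libraries numbered 3, where the difference was 1.27 ± 0.23 (edgeR adjusted p = 0.00497). It was made with the replicate block too, which pairs GRKO libraries by number although those of replicate 1 had r of 0.0129. The enterocyte marker sum also differed between the nonPC groups, and its part in this difference was not tested.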

How the results depend on the processing

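Of the values of single genes among the 10, 752 kept their direction and side of the threshold under the alternatives, 108 passed the threshold only there, 7 were lost and 33 changed sign, and the cause was not tested. The 10 genes called in WT PC against WT nonPC numbered 3, against 9 by library totals only and 10 with no filter, only the groups compared, the replicate block or without GRKO replicate 3 in both fractions. In GRKO PC against WT PC they numbered 0, and 7 with no filter. In GRKO nonPC against WT nonPC they numbered 3, against 5 by DESeq2, 10 with no filter and 9 without GRKO replicate 3. In GRKO PC against GRKO nonPC they numbered 1, against 0 at a false discovery rate of 1% or with at least 10 counts, 10 by library totals, 8 with no filter or the replicate block and 7 without GRKO replicate 3; leaving out 1 library gave 0 to 2, with 0 without GRKO PC replicate 3 or GRKO nonPC replicates 1 or 2. The interaction called 1, against 3 with RLE factors, DESeq2, no filter, at least 10 counts, the replicate block or without GRKO replicate 3, and 1 to 3 when 1 library was left out.

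The pathway list had 3 calls in GRKO PC against WT PC, against 0 at a false discovery rate of 1%, by library totals, with only the groups compared or without GRKO replicate 3 or WT replicate 2 in both fractions, 8 by DESeq2, 18 with no filter, 5 with at least 10 counts or the replicate block and 0 to 6 when 1 library was left out. In GRKO PC against GRKO nonPC it had 34, against 21 at 1%, 58 by library totals and 20 to 29 when 1 library was left out. Its interaction had 10, against 2 at 1%, 4 by library totals, 16 with no filter, 17 with the replicate block and 3 to 14 when 1 library was left out. Over all genes GRKO PC against WT PC gave 420 calls, against 0 at 1% or with only the groups compared, 2 by library totals, 1464 by DESeq2, 1780 with no filter, 977 with the replicate block, 112 without GRKO replicate 3, 1 without WT replicate 2 in both fractions and 0 to 1619 when 1 library was left out (0 without GRKO PC replicate 2 and 1 without WT PC replicate 1). GRKO nonPC against WT nonPC gave 4869, against 3002 at 1%, GRKO PC against GRKO nonPC 5116, against 10785 by library totals, and the interaction 2445, against 955 at 1%, 1432 without GRKO replicate 3 and 1562 to 2610 when 1 library was left out.

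With library totals only all genes had a median log2 fold change of -0.68 in WT PC against WT nonPC, 0.31 in GRKO nonPC against WT nonPC, -1.05 in GRKO PC against GRKO nonPC and -0.28 in the interaction, and with TMM of 0.01, 0.02, -0.08 and -0.01. Signs changed for the interaction of H2-Eb1 (-0.11 by library totals, -0.26 to 0.60 with 1 library left out), H2-DMa (-0.22, and -0.29 to 0.38) and Cd74 (-0.052 to 0.74 with 1 library left out). H2-K1 in GRKO PC against WT PC became -0.014 with at least 10 counts, -0.0047 with only the groups compared and -0.10 to 0.23 with 1 library left out, and H2-D1 -0.10 to 0.35. In GRKO PC against GRKO nonPC H2-K1 became -0.93 by library totals, -0.021 with no filter and -0.10 to 0.23 with 1 library left out. There H2-D1 became -0.99 by library totals (called), 0.042 with RLE factors, 0.017 without Lyz1 and Defa genes in the scaling, 0.034 by DESeq2, 0.086 with at least 10 counts, 0.079 with only the groups compared, 0.16 without GRKO replicate 3, 0.0022 without WT replicate 2 and -0.22 to 0.22 with 1 library left out. Without division by length, 4 of the 10 genes kept their place in the order of levels in WT nonPC. GRKO PC and nonPC libraries of the same number had r of 0.0129, 0.262 and 0.465, and replicates 2 and 3 but not 1 of PC were closest to their own number, a hint of pairing from the data and not from the design; the replicate block called all 7 class II genes lower in GRKO PC (adjusted p between 4.43e-06 and 0.0014). For GRKO against WT the numbers showed no such pairing. Genes at a few CPM, such as Cd274 and Cd1d2, are limited by depth.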

Other observations

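The non-classical class I genes H2-T22 and H2-T10, which encode near-identical ligands of gamma delta T cells, were present in a ratio that varied within groups, and this pair was chosen after its values were seen. The ratio of H2-T22 to H2-T10 in CPM was 3.80, 24.6 and 24.7 in WT PC replicates 1, 2 and 3 and 4.06, 4.76 and 44.9 in GRKO PC. In nonPC it was 2.97, 12.1 and 20.6 in WT and 3.16, 3.6 and 19 in GRKO. Low ratios were thus found in WT replicate 1 and in GRKO replicates 1 and 2 of both fractions, and high ratios in WT replicates 2 and 3 and in GRKO replicate 3. Unique windows of 50 bases made up 64.7% of H2-T10 and 63.4% of H2-T22, so that how reads were divided between the copies is uncertain.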
